A study of Mus musculus with 9 samples.

Results

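The serotonin receptors described here are 10 genes, Htr1a, Htr1b, Htr1d, Htr1f, Htr2a, Htr2c, Htr3a, Htr4, Htr5a and Htr7, chosen by name and all present among the 21457 genes of the cholinergic expression matrix. Their levels were followed over the 21 clusters into which the study divided 16042 cholinergic nuclei of the adult mouse spinal cord, out of 34231 annotated nuclei. The mice, of the strain Chat-IRES-Cre::Sun1-sfGFP (Chat-iCre:+/wt; SUN-SfGFP:+/wt), were 8 weeks old, and every mouse carried both alleles, so there was no untreated or wild-type group. The Chat-driven Cre recombinase labels the nuclear envelope of any cell that has expressed the acetylcholine-synthesizing enzyme, now or earlier in life, and GFP+ nuclei were sorted before single-nucleus RNA sequencing. There were 12 mice in 3 pools of 4, the first with 2 males and 2 females, the second male and the third female. Each pool was cut into cervical, thoracic and lumbar/sacral cord, which gave 9 libraries. A library is therefore a cord region from a pool of 4 mice, and the 9 libraries come from only 3 pools. The p-values below measure the spread over libraries and not over independent pools of mice. Except where the pool is a block, the tests treated libraries of the same pool as independent.

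Serotonin reaches the spinal cord from neurons of the brainstem raphe nuclei and adjusts the excitability of motor neurons (MNs). Its receptors fall into groups by what they act on. The Htr1 and Htr5 receptors couple to Gi and Go proteins and lower cyclic AMP, the Htr2 receptors couple to Gq and phospholipase C, Htr4 and Htr7 couple to Gs and raise cyclic AMP, and Htr3a forms an ion channel. In motor neurons the Htr2 receptors are best known for promoting sustained depolarization.

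The 3 classes of nuclei were 5054 skeletal MNs (clusters S1 to S3, which the study names Type 3, alpha and gamma MNs), 5613 visceral MNs (V1 to V10) and 5375 interneurons (I1 to I8). The leading class markers followed the labels, with 1 exception. Tns1 was at 381 CPM in skeletal MNs against 31.3 and 5.90 CPM in visceral MNs and interneurons, Fbn2 at 634 CPM in visceral MNs against 21.8 and 10.1 CPM in the others, and Pax2 at 211 CPM in interneurons against 7.03 and 3.46 CPM. Nos1, listed for visceral MNs, was higher in interneurons (446 CPM) than in visceral MNs (208 CPM). Levels are in CPM, the corrected counts summed over the nuclei of 1 library and cluster or class (at least 10 nuclei) and scaled to the same total in every sum. A library gave between 747 and 2825 cholinergic nuclei and between 9751375 and 19432614 summed counts, with a median total per nucleus from 4712 to 16127, and 33 barcodes of cholinergic nuclei occurred in more than 1 library. By Hoxc5, a gene of the cervical Hox list, pool 2 ran opposite to the other pools. It was at 25.4, 73.3 and 22.5 CPM in the cervical libraries of pools 1 to 3 and at 85.3, 13.9 and 84.2 CPM in the thoracic ones, with 81.1 to 93.6 CPM in the lumbar/sacral ones, so pools 1 and 3 had more of it in thoracic than in cervical cord and pool 2 had less. Hoxc4, of the same list, was at 59.2, 61.8 and 58.5 CPM in the cervical and 74.9, 34.8 and 64.2 CPM in the thoracic libraries. Which labels hold was not settled, and the libraries labelled cervical replicate 2 and thoracic replicate 2 are called in doubt below, where the main comparisons of regions are given with and without them. Hoxd11 was between 23.0 and 31.0 CPM in the 3 lumbar/sacral libraries and at 0 in the others. Oligodendrocyte markers (5 of 5 in the matrix) summed to 54.9 to 92.5 CPM in skeletal MNs, 36.5 to 61.6 CPM in visceral MNs and 37.7 to 54.9 CPM in interneurons, and their part in the class differences below was not tested. Astrocyte markers summed to no more than 7.17 CPM in any class of a library, and microglia markers to between 4.52 and 117.7 CPM with similar medians in the 3 classes (31.3 to 41.1 CPM). Of the serotonergic neuron markers, 3 of 4 were in the matrix, with list sums from 0.978 to 26.4 CPM over libraries and classes. Slc18a2, the vesicular monoamine transporter, averaged 8.88, 5.59 and 9.03 CPM in the skeletal, visceral and interneuron classes, Tph2, the enzyme of serotonin synthesis in neurons, 2.60, 1.25 and 0.819 CPM, and Slc6a4, the serotonin transporter, no more than 0.194 CPM.

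Unspliced RNA was counted, so a long gene can collect more reads than a short one, and levels are compared below between cells and not between receptors. The genes range from Htr1a, 4.5 kb on chromosome 13 (105443639 to 105448122), to Htr2c, 234.8 kb on chromosome X (146962513 to 147197277), in mouse build GRCm38. Htr1d lies on chromosome 4 (136423524 to 136444398), Htr1f on chromosome 16 (64924729 to 65105854), Htr2a on chromosome 14 (74640840 to 74709494) and Htr7 on chromosome 19 (35958734 to 36057507). Htr2c holds 8 small RNA genes on its own strand, and Htr1b and Htr3a each overlap an antisense gene.

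The sequences of 250 bases before the transcription start are shown for Htr1d, Htr1f and Htr2a, the 3 members that were higher in skeletal MNs than in both other classes, so that the start regions of receptors with that shared pattern can be read beside it. They come from RefSeq on GRCm38.p6, whose promoter table held 8 of the 10 members, and capitals mark the 6-letter runs GGGCGG (the core of an Sp-family site, on either strand) and TAATTA (a homeodomain core). Both motifs were picked after the sequences had been seen.
Htr1d, chr4:136423274-136423523, plus strand, the first of 2 starts: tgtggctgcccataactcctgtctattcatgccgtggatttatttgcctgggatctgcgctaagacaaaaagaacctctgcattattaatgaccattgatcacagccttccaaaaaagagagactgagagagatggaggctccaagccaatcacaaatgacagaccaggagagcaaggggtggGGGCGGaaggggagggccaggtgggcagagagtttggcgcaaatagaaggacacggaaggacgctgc
Htr1f, chr16:65105785-65106034, minus strand: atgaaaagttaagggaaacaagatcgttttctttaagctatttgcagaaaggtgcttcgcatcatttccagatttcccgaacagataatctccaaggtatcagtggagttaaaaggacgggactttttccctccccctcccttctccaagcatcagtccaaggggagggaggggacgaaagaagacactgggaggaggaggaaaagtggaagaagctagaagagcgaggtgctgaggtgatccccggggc
Htr2a, chr14:74640624-74640873, plus strand: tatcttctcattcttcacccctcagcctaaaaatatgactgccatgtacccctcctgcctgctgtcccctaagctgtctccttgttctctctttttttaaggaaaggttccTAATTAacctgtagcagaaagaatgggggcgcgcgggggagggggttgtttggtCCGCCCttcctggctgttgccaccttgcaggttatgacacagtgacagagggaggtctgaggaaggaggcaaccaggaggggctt
The Htr1d and Htr2a windows each hold 1 GGGCGG, in Htr2a on the other strand, and the Htr2a window holds 1 TAATTA. The Htr1f window holds neither run of letters. Of 32851 promoter windows of the table, 32.74% hold GGGCGG and 4.84% hold TAATTA, so the shared motif is a common one.

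Across the 21 clusters the receptors fell into 6 that were readily detected and 4 that were close to the limit of counting. Htr2c had a count in 71.7% of nuclei, Htr7 in 46.4%, Htr2a in 43.0%, Htr1f in 42.0%, Htr1d in 15.3% and Htr4 in 9.21%. Htr1b had a count in 1.43% of nuclei, Htr5a in 1.39%, Htr1a in 0.281% and Htr3a in 0.118%. These 4 are also the shortest of the 10 genes, from 4.5 kb (Htr1a) to 12.9 kb (Htr5a), and the part of gene length in these shares was not tested. The level that 3 counts in a class of 1 library would give was between 0.326 and 1.58 CPM, and the last 4 genes lay near or below it in most groups. Each receptor had its own order of clusters, described below by type of coupling. The clusters and classes had been drawn by the study from these same expression values, so part of any difference between them is built in, and the tests between them describe its size against the spread between libraries.

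**Figure D1:**
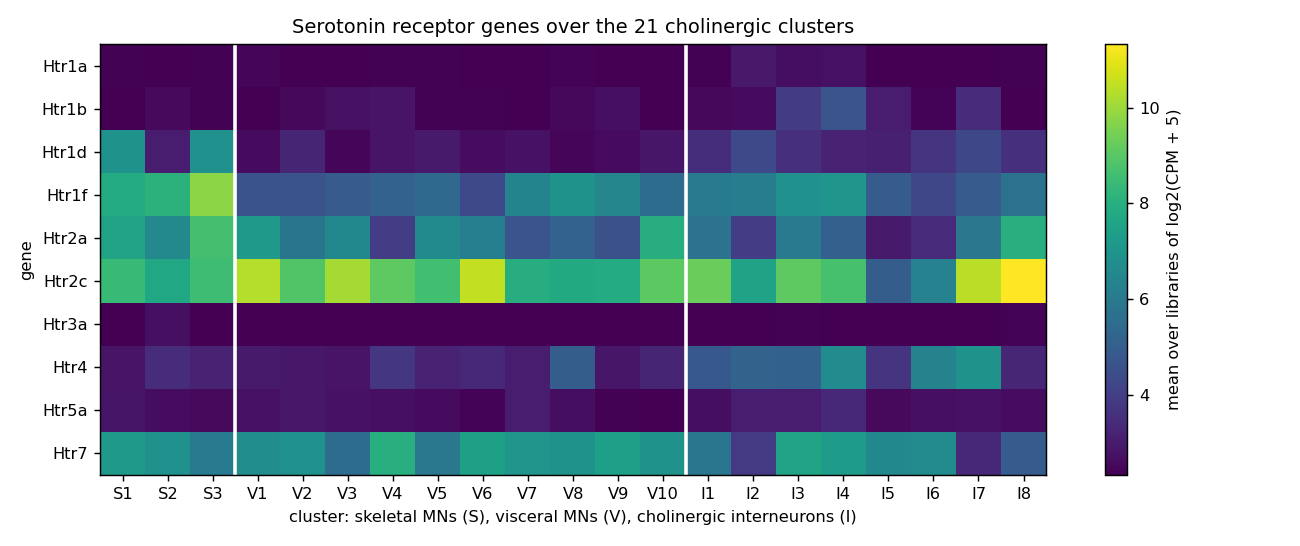
Mean over libraries of log2(CPM + 5) for each of the 10 receptors (rows) in each of the 21 clusters (columns), as colour, with white lines between skeletal MNs, visceral MNs and interneurons. Htr1d stands out in S1 and S3, Htr1f in S3, Htr2c in I8 and Htr4 in I7, while Htr1a, Htr3a and Htr5a stay near the bottom of the scale throughout.

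Among the Gi- and Go-coupled receptors, Htr1d was nearly restricted to skeletal MNs. In skeletal MNs its level ran from 57.9 CPM through a median of 79.0 to 112 CPM over the 9 libraries, in visceral MNs from 0.803 through 1.63 to 4.52 CPM and in interneurons from 5.02 through 8.56 to 9.72 CPM. The lowest skeletal library thus lay far above the highest library of either other class. The difference on the log2(CPM + 5) scale was -3.72 (SE 0.101, adjusted p = 1.45e-17, limma) for visceral against skeletal MNs and -2.78 (SE 0.101, adjusted p = 1.55e-15) for interneurons against skeletal MNs. Htr1f, another member of the same subfamily, also led in skeletal MNs, but was present at a lower level elsewhere. It ran from 431 through 528 to 600 CPM in skeletal MNs, from 26.05 through 47.6 to 86.1 CPM in visceral MNs and from 47.8 through 70.9 to 88.1 CPM in interneurons. The ranges of skeletal MNs and the other classes did not overlap, and the log2 difference was -3.36 (SE 0.132, adjusted p = 3.89e-15) in visceral MNs and -2.86 (SE 0.132, adjusted p = 6.79e-14) in interneurons. To set the classes at the same depth, each nucleus was thinned to 4000 counts, which left out 3.53% of nuclei, all of them with fewer counts (median totals before thinning 7393, 7519 and 6986 for the skeletal, visceral and interneuron classes). At that depth Htr1d was detected in 27.0% ± 7.13 (SD, n = 9) of skeletal MNs, 0.663% ± 0.569 of visceral MNs and 2.94% ± 0.715 of interneurons, and Htr1f in 71.7% ± 5.25, 13.9% ± 4.72 and 20.2% ± 4.25. Without thinning the shares were 44.0%, 1.43% and 6.22% for Htr1d and 84.1%, 21.5% and 31.4% for Htr1f. No cell type known to lack these receptors is in the matrix, so a background share from free RNA could not be set.

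The other Gi- and Go-coupled members, all short genes, had few counts. Htr1b, known elsewhere as a receptor on axon terminals, averaged 5.63 ± 2.30 CPM in interneurons (SD, n = 9) against 0.297 CPM in skeletal and 0.835 CPM in visceral MNs. Within the interneurons it was highest in I4, at 22.9 ± 12.4 CPM, followed by I3 at 11.2 ± 5.94 CPM and I7 at 8.16 ± 7.69 CPM. Htr5a was highest in I4 as well, at 5.77 ± 3.43 CPM, and Htr1a, the autoreceptor of raphe neurons, in I2, at 2.81 ± 1.98 CPM. These 3 genes did not reach 10 CPM in 3 class sums and were not tested in the class fit.

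The Gq-coupled receptors had opposite class patterns. Htr2a was highest in skeletal MNs, where it ran from 181 through 246 to 325 CPM, against 44.9 through 64.3 to 144 CPM in visceral MNs and 32.0 through 39.6 to 73.3 CPM in interneurons. No visceral or interneuron library reached the lowest skeletal one, and the log2 difference from skeletal MNs was -1.70 (SE 0.118, adjusted p = 4.22e-11) in visceral MNs and -2.41 (SE 0.118, adjusted p = 1.82e-13) in interneurons. Htr2c was instead highest in visceral MNs, with 365 through 768 to 1388 CPM, against 269 through 309 to 434 CPM in skeletal MNs and 340 through 511 to 721 CPM in interneurons. Its ranges overlapped between all classes. Visceral MNs had more than interneurons in every cervical and thoracic library. In the lumbar/sacral libraries interneurons had more, at 702, 511 and 639 CPM against 443, 365 and 549 CPM in visceral MNs. The level in visceral MNs was higher than in skeletal MNs by 1.20 on the log2 scale (SE 0.199, adjusted p = 1.91e-05), whereas that of interneurons exceeded skeletal MNs by 0.71 (SE 0.199, adjusted p = 0.00426), under the fold of 1 set for a call. The share of nuclei with an Htr2c count at equal depth was less spread than the level, at 62.0% of skeletal MNs, 66.3% of visceral MNs and 52.4% of interneurons.

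Htr2c differed widely among clusters. It was highest in I8, at 2737 ± 948 CPM (SD, n = 8), then in V6 (1712 ± 794 CPM, n = 8), I7 (1381 ± 452 CPM, n = 6), V1 (1334 ± 393 CPM, n = 9) and V3 (1241 ± 592 CPM, n = 9). All other clusters averaged 626 CPM or less, and the lowest were I6 at 93.1 ± 64.3 CPM and I5 at 34.3 ± 25.5 CPM. Interneurons therefore held both ends of the Htr2c order. At equal depth the gene was detected in 90.5% of I8 nuclei, 91.4% of V1, 90.8% of I7 and 8.78% of I5. Htr2a shared part of this order: it was highest in S3 (409 ± 86.4 CPM), then in I8 (256 ± 72.3 CPM) and V10 (254 ± 95.2 CPM), and lowest in I6 (6.78 ± 5.62 CPM) and I5 (3.56 ± 4.01 CPM). Over the 21 cluster means, Pearson's r between the 2 genes on the log2(CPM + 5) scale was 0.64, a description over points that come from the same libraries.

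The Gs-coupled receptors differed from each other. Htr4 was highest in interneurons as a class, with 28.4 through 44.1 to 55.4 CPM in interneurons, 2.07 through 3.78 to 8.83 CPM in skeletal MNs and 2.39 through 4.74 to 16.1 CPM in visceral MNs. The lowest interneuron library was above the highest library of both MN classes, with a log2 difference of 2.35 from skeletal MNs (SE 0.171, adjusted p = 1.07e-10) and of 2.10 from visceral MNs (SE 0.171, adjusted p = 1.18e-09). Within the interneurons it was highest in I7 (124 ± 40.1 CPM, n = 6), I4 (98.9 ± 23.3 CPM, n = 9) and I6 (82.3 ± 30.8 CPM, n = 9), while I8, the cluster with the most Htr2c, had 6.44 ± 7.63 CPM. Htr7 differed between the classes by less than the fold set for a call. It ran from 71.9 through 102 to 115 CPM in skeletal MNs, from 82.3 through 136 to 186 CPM in visceral MNs and from 66.8 through 91.7 to 97.2 CPM in interneurons, and these ranges overlapped. The log2 difference was 0.35 for visceral against skeletal MNs (95% interval 0.16 to 0.55, adjusted p = 0.00244) and -0.20 for interneurons against skeletal MNs (95% interval -0.39 to -0.00017, adjusted p = 0.0787). Clusters differed more: Htr7 was highest in V4 (249 ± 56.1 CPM), V9 (199 ± 125 CPM, n = 6) and I3 (190 ± 33.0 CPM) and lowest in I2 (10.2 ± 4.80 CPM) and I7 (6.58 ± 6.13 CPM, n = 6). I7 thus had the most Htr4 and the least Htr7.

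Htr3a, the ion channel subunit and also a short gene (11.9 kb), was rarely counted at this depth. It was counted in 0 of 5613 visceral MNs, and its highest cluster mean was 1.59 ± 1.72 CPM (SD, n = 9), in S2.

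**Figure D2:**
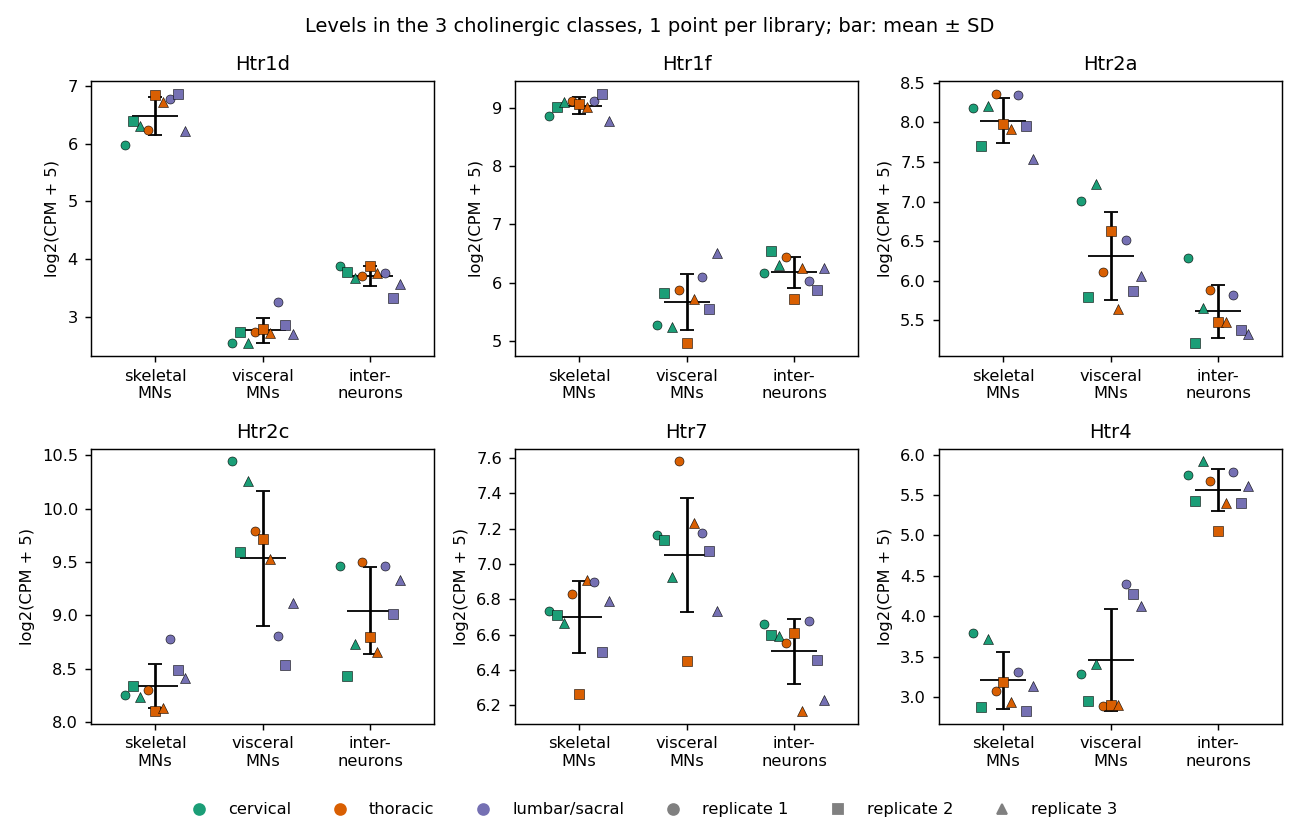
Level of the 6 readily detected receptors in skeletal MNs, visceral MNs and interneurons, as log2(CPM + 5) on an axis of its own for each receptor, with 1 point per library (9 per class; colour for region, shape for replicate) and bars for mean ± SD. Htr1d, Htr1f and Htr2a separate skeletal MNs from the other classes and Htr4 separates interneurons, whereas the points of Htr7 overlap.

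A receptor was counted as called between classes when its adjusted p was under 0.05 and its log2 difference at least 1. In visceral against skeletal MNs 4 of the 6 members tested were called, 1 higher (Htr2c) and 3 lower (Htr1d, Htr1f and Htr2a), beside 11.8% of all 11292 genes tested, 5.59% higher and 6.22% lower. In interneurons against skeletal MNs 4 were called, with Htr4 higher and Htr1d, Htr1f and Htr2a lower, beside 10.7% of all genes, 4.96% higher and 5.69% lower. Interneurons differed from visceral MNs in 1 member, Htr4, which was higher, beside 7.75% of all genes and 3.8% higher. The remaining differences between these classes stayed under the fold, with Htr1d at 0.94 (SE 0.101), Htr1f at 0.51 (SE 0.132), Htr2c at -0.49 (SE 0.199), Htr7 at -0.55 (SE 0.0939) and Htr2a at -0.70 (SE 0.118). Htr1d reached the expression filter only through skeletal MNs, and without a filter on low values the same members were called in all 3 comparisons.

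The 3 skeletal clusters carried different sets of receptors. The study's labels for them matched their markers: Stk32a, a marker of alpha MNs, was at 351.9 CPM in S2 against 14.3 CPM in S1 and 10.1 CPM in S3, Nrp2, a marker of gamma MNs, at 441.5 CPM in S3 against 3.79 and 37.6 CPM in S1 and S2, and Gpr149, a marker of Type 3 MNs, at 419.9 CPM in S1 against 95.8 and 14.3 CPM in S2 and S3. Htr1d separated alpha MNs from the rest. It was between 87.4 and 148 CPM in the 9 libraries of S1 and between 100.4 and 136 CPM in those of S3, but between 0 and 28.6 CPM in S2. The S2 values were highest in lumbar/sacral replicate 2 (28.6 CPM), and no library of S2 reached the lowest of S1 or S3. S2 was above 10 CPM only there and in thoracic replicate 2 (10.6 CPM). Htr1d thus passed the filter of 10 CPM in 3 sums only through S1 and S3. S2 was lower than S1 by a log2 difference of -3.87 (SE 0.214, adjusted p = 5.88e-13), and S3 was higher than S2 by 3.81 (SE 0.214, adjusted p = 1.58e-13). S3 and S1 did not differ detectably in Htr1d, with a log2 difference of -0.06 and a 95% interval from -0.50 to 0.38.

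Gamma MNs stood apart in Htr1f and Htr2a. Htr1f was between 778 and 992 CPM in S3, between 197 and 358 CPM in S2 and between 155 and 349 CPM in S1, so that every library of S3 lay above every library of the others. S3 exceeded S1 by 1.91 (SE 0.111, adjusted p = 3.94e-13) and S2 by 1.67 (SE 0.111, adjusted p = 4.20e-12), while S2 and S1 differed by 0.23 (95% interval 0.0044 to 0.46, adjusted p = 0.138). Htr2a was between 298 and 543 CPM in S3, 147 and 259 CPM in S1 and 31.4 and 154 CPM in S2. It was therefore graded, though S1 and S2 overlapped, with S3 above S1 by 1.09 (SE 0.127, adjusted p = 1.67e-07) and S2 below S1 by -1.01 (SE 0.127, adjusted p = 6.54e-07). The second of these differences fell under the fold of 1, to -0.88, without the 2 libraries whose labels are in doubt.

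Htr7 was the member that was lower in gamma MNs. It was between 39.9 and 71.9 CPM in S3, between 108 and 171 CPM in S1 and between 86.1 and 133 CPM in S2. All libraries of S3 were below all of S1 and S2, with a log2 difference of -1.16 from S1 (SE 0.0661, adjusted p = 2.66e-13) and of -0.84 from S2 (SE 0.0661, adjusted p = 9.07e-11). Htr2c was lower in alpha MNs, at -0.74 against S1 (SE 0.131, adjusted p = 9.61e-05) and with S3 higher than S2 by 0.82 (SE 0.131, adjusted p = 1.72e-05), but its libraries overlapped between clusters. S3 and S1 did not differ detectably in Htr2c (0.08, 95% interval -0.19 to 0.35). In all, 2 of the 5 members tested were called in S2 against S1, both lower, beside 5.23% of 11465 genes (2% lower). In S3 against S1 there were 3 calls, 2 higher and 1 lower, beside 5.33% (2.58% higher and 2.75% lower). In S3 against S2 there were 3, all higher, beside 8.12% (3.29% higher). Htr1d, which passed the filter only through S1 and S3, is among the calls in both comparisons with S2. Summed oligodendrocyte markers had a median of 112.5 CPM in S1, 104.3 CPM in S2 and 38.9 CPM in S3, and their part in these differences was not tested.

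**Figure D3:**
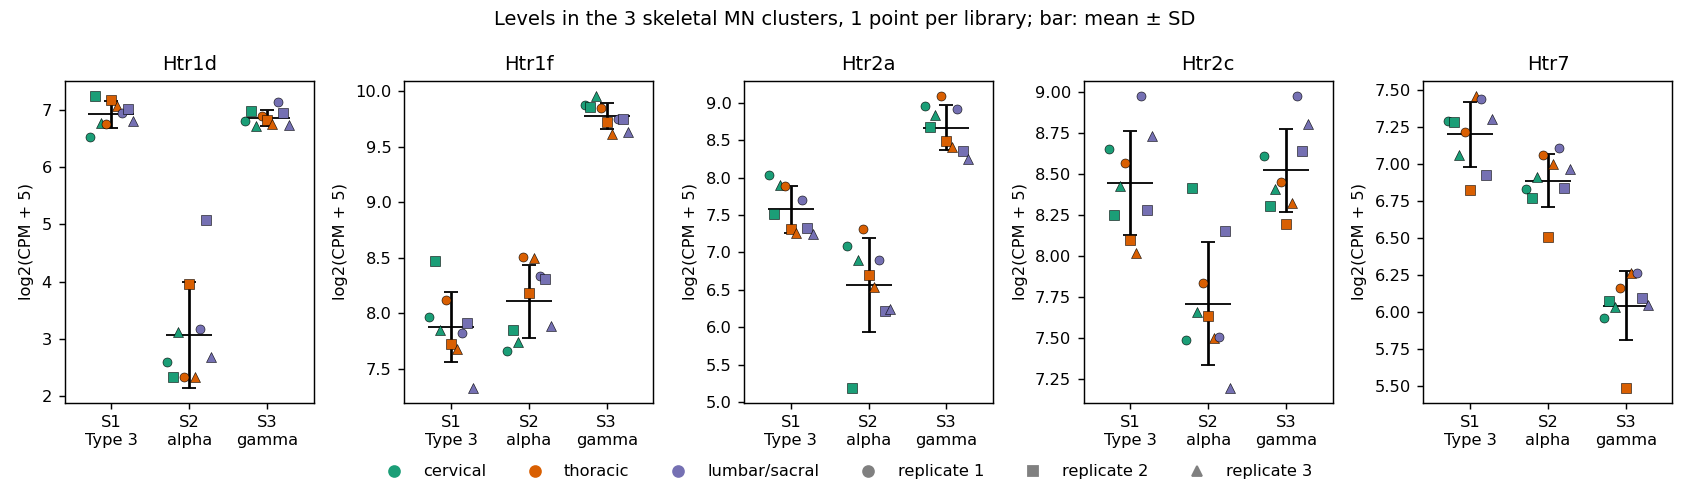
Level of Htr1d, Htr1f, Htr2a, Htr2c and Htr7 in the skeletal clusters S1 (Type 3), S2 (alpha) and S3 (gamma), as log2(CPM + 5) on an axis of its own for each receptor, with 1 point per library (9 per cluster; colour for region, shape for replicate) and bars for mean ± SD. Htr1d is low in S2, Htr1f and Htr2a are highest in S3, and Htr7 is lowest in S3.

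Clusters next to each other in a receptor's order were compared over libraries with an exact two-sided sign-flip test. Of 136 such pairs over 7 receptors, 0 passed after adjustment, the smallest adjusted p being 0.0759, and 12 had an unadjusted p under 0.05. With 9 libraries the smallest p this test can give is 0.0039. That value was reached for the steps from S3 to I2 in Htr1d, from S3 to S2 and from S1 to I4 in Htr1f, from V3 to I1, I2 to I6 and I6 to I5 in Htr2c, and from I6 to I3 in Htr4, each with the first cluster higher in 9 of 9 libraries. In Htr2a the step from S3 to I8 was 0.684 ± 0.185 (SD) on the log2 scale, higher in 8 of 8 libraries, with the smallest p that 8 libraries allow, 0.0078. Because of that limit the adjusted values cannot pass unless more pairs reach it, and missing the threshold does not show that neighbours are alike.

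The first question along the cord was whether lumbar/sacral levels differed from the rostral libraries (cervical and thoracic together), here with an adjusted p under 0.05 as the call. In skeletal MNs 0 of 5 members tested were called, beside 0.01% of 9999 genes, and in interneurons 0 of 5, beside 0.051% of 9805 genes. Skeletal Htr2c was between 335 and 434 CPM in the lumbar/sacral libraries and between 269 and 318 CPM in the rostral ones, which do not overlap, with a log2 difference of 0.33 (95% interval 0.09 to 0.57, adjusted p = 0.900). In visceral MNs 2 of 5 were called, Htr2c lower and Htr4 higher, beside 4.27% of 10031 genes (2.32% higher and 1.94% lower).

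Visceral Htr2c was 1388, 768 and 1225 CPM in the cervical, 883, 838 and 735 CPM in the thoracic and 443, 365 and 549 CPM in the lumbar/sacral libraries of pools 1 to 3. Every lumbar/sacral library was below every rostral one, with a log2 difference of -1.07 (SE 0.203, adjusted p = 0.0193). The adjusted p was 0.00838 with the pool as a block, and rose to 0.0518, 0.0978 and 0.113 when cervical replicate 3, lumbar/sacral replicate 1 or lumbar/sacral replicate 2 was left out. Without the 2 libraries in doubt the difference was -1.19 (adjusted p = 0.00764). Visceral Htr4 was 4.74, 2.73 and 5.62 CPM in the cervical, 2.39, 2.49 and 2.44 CPM in the thoracic and 16.1, 14.3 and 12.4 CPM in the lumbar/sacral libraries. The groups again did not overlap, with a log2 difference of 1.21 (SE 0.175, adjusted p = 0.00481). Htr4 passed the filter of 10 CPM in 3 sums only through the lumbar/sacral libraries, so that it could be tested only because it differed, and without any filter the adjusted p was 0.00448. With 1 lumbar/sacral library left out it fell under the filter.

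The visceral class does not hold the same clusters at each level: 463 of the 467 nuclei of V8 were lumbar/sacral. V8 had 229 ± 101 CPM of Htr2c and 26.5 ± 4.03 CPM of Htr4 (SD, n = 3), below and above the class means of 799 and 7.04 CPM. With V8 left out, the log2 difference of Htr2c was -0.80 (adjusted p = 0.119), with 556, 442 and 650 CPM in the lumbar/sacral libraries against 735 to 1390 CPM in the rostral ones. Htr4 then no longer passed the filter, at 11.6, 8.73 and 7.33 CPM against 2.39 to 5.62 CPM. The ranges still did not overlap for either gene, but Htr2c was not called and Htr4 was not tested.

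The same comparison within clusters, which holds the cluster fixed, was possible in 17 of the 21 and gave 5 calls among 82 tests of members, all in visceral clusters. Htr2c was lower in the lumbar/sacral libraries of V2 (356, 225 and 308 CPM against 409 to 999 CPM), with a log2 difference of -1.02 (adjusted p = 0.0199) beside 3.07% of genes called in that cluster. In V3 it was 695, 488 and 702 CPM against 1009 to 2354 CPM, with a difference of -1.26 (adjusted p = 0.0141) beside 1.55%. In V6 it was 340 and 792 CPM against 1562 to 2594 CPM, a difference of -1.98 (adjusted p = 0.0103) beside 8.89%, but these 2 lumbar/sacral sums held only 13 and 10 nuclei. The direction was not shared by all visceral clusters. In V7 Htr2c was 525, 370 and 466 CPM in the lumbar/sacral libraries against 105.5 to 319 CPM in the rostral ones, a difference of 1.35 that was not called (adjusted p = 0.187).

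Htr4 was higher in the lumbar/sacral nuclei of V4, at 34.6, 29.3 and 27.4 CPM against 0 to 5.64 CPM in the rostral libraries, with a log2 difference of 2.12 (adjusted p = 0.00485) beside 2.74% of genes. As in the whole class, it passed the filter there through the lumbar/sacral libraries alone. In V7 Htr4 was at 0 in the 3 lumbar/sacral libraries, which held only 20, 24 and 26 nuclei of that cluster. It was at 9.53, 4.14 and 15.2 CPM in the cervical and 5.44, 0 and 3.34 CPM in the thoracic ones, too low to be tested. With so few nuclei the zeros do not show a lower level. Htr7 was higher in the lumbar/sacral nuclei of V5, at 117, 121 and 93.7 CPM against 18.5 to 57.2 CPM, with a difference of 1.63 (adjusted p = 0.0412) beside 1.38%. 0 members were called in the other clusters, beside 0% of genes in I1, I3, S1, S2 and V1, 0.0286% in I5, 0.0408% in I4, 0.0711% in S3, 0.0783% in V7, 0.0869% in I8, 0.511% in I2 and 0.845% in I6. The number of calls within clusters was 3, 4 and 0 with pools 1, 2 or 3 left out, 6 without the libraries in doubt and 8 with the pool as a block, which added Htr1f in I3 (-1.08, adjusted p = 0.0273) and V2 (1.30, adjusted p = 0.0281) and Htr2c in V5 (-1.23, adjusted p = 0.0192). The share of all genes called is not given beside these recounts.

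**Figure D4:**
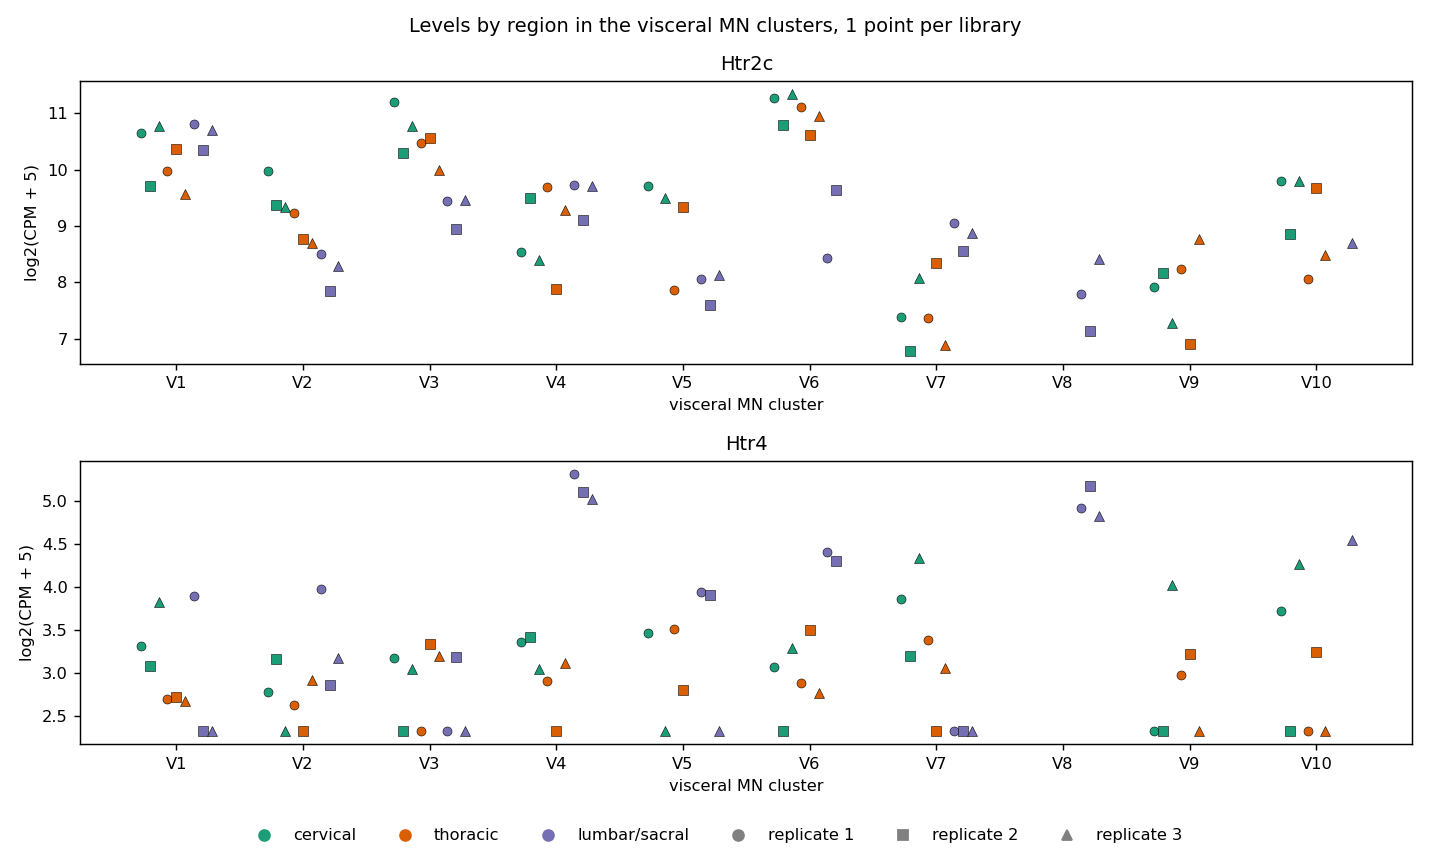
Level of Htr2c (top) and Htr4 (bottom) in the 10 visceral clusters, as log2(CPM + 5), with 1 point per library with at least 10 nuclei (colour for cord region, shape for replicate). Lumbar/sacral points of Htr2c lie lowest in V2, V3 and V6 and highest in V7, and those of Htr4 lie highest in V4 and reach a similar level in V8, which has points of that region alone.

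Whether the lumbar/sacral difference itself differed between classes was tested as an interaction. The Htr2c difference was lower in visceral than in skeletal MNs by -1.41 (SE 0.221, adjusted p = 0.00354) and higher in interneurons than in visceral MNs by 1.41 (adjusted p = 5.23e-04). For Htr4 the corresponding values were 1.38 (adjusted p = 3.78e-04) and -1.15 (adjusted p = 0.00157). Htr1f and Htr1d also differed between interneurons and visceral MNs, by -0.75 (adjusted p = 0.00648) and -0.49 (adjusted p = 0.0290). Htr1d was in this fit only because of its level in skeletal MNs, as no visceral or interneuron library reached 10 CPM. These 2 interactions were called for 5.72% and 8.58% of all genes, and 0 members differed between interneurons and skeletal MNs, beside 0.133%.

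Cervical and thoracic libraries were compared in the same fits. As labelled, 0 genes were called by limma in any class, members included, although 607, 160 and 189 genes had an unadjusted p under 0.05 in the skeletal, visceral and interneuron fits, with 0 of them members. Without the 2 libraries in doubt 0 members were called in the 3 classes. The share of all genes called in those fits is not given here, so this count is not a result about the members in particular. The visceral Htr2a difference was 0.55 (adjusted p = 0.945) as labelled and 1.24 (unadjusted p = 0.00154, adjusted p = 0.235) without the libraries in doubt. That of Htr2c was 0.42 (adjusted p = 0.945) and 0.69 (adjusted p = 0.621). Within V5, Htr2c was 833 and 721 CPM in cervical replicates 1 and 3 and 229 and 641 CPM in thoracic replicates 1 and 2, a log2 difference of 1.004 (adjusted p = 0.904). The other 2 rostral libraries had fewer than 10 nuclei of V5, and without the libraries in doubt 1 thoracic library is left, so no test is given.

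The male and the female pool were compared with region as a term, the mixed pool being left out. Each sex was 1 pool of 4 mice, so sex and pool cannot be told apart. 0 members were called in skeletal MNs, visceral MNs or interneurons, beside 0.0725%, 0.0513% and 0.0521% of genes (7 of 9660, 5 of 9744 and 5 of 9594). The largest differences of members were -0.38 for visceral Htr1f (95% interval -1.24 to 0.47), -0.35 for visceral Htr2c (-0.88 to 0.18) and -0.35 for interneuron Htr4 (-0.66 to -0.05, adjusted p = 0.340). With the library labelled cervical replicate 2 or 3 left out, 2 skeletal, 1 visceral and 2 interneuron differences of members were called, in fits that called between 362 and 1331 genes.

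A single nucleus often contained counts of several receptors. At 4000 counts a nucleus, skeletal MNs had 2.53 ± 0.165 (SD, n = 9) of the 10 members, visceral MNs 1.43 ± 0.135 and interneurons 1.30 ± 0.12. At least 3 members were found in 52.1% of skeletal MNs, 10.6% of visceral MNs and 13.2% of interneurons, and no member in 3.65%, 13.4% and 25.0%. Gamma MNs had the most, with 3.01 members per nucleus, at least 3 in 70.3% and none in 0.33% of nuclei, followed by S1 with 2.52 and S2 with 1.78. The interneuron cluster I5 had the fewest, at 0.52 members, with none in 58.2% of its nuclei. I2 and I6 were also often without a detected member, in 43.3% and 38.0% of nuclei, whereas I3 and I4 had 2.03 and 1.97.

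Receptors that share a class were also found in the same nuclei. Htr1f and Htr2a were both counted in 74.4% ± 7.2 (SD, n = 9) of S3 nuclei, the same as the product of their separate shares, 74.4%. Over all skeletal MNs they were together in 45.6% of nuclei against a product of 42.0%, higher in 9 of 9 libraries. Within clusters, 5 of 9 libraries lay above the product in S3, 6 of 9 in S1 and 3 of 9 in S2. Htr2c and Htr2a were together in 18.3% of visceral MNs against a product of 16.3%, and in 9.5% of interneurons against 6.9%, in both cases higher in 9 of 9 libraries. Single clusters differed in this. Both were together in 15.5% of I3 nuclei against a product of 14.3% (9 of 9 libraries above it) and in 15.3% of S2 nuclei against 13.6% (8 of 9), but in 52.2% of I8 nuclei against 53.4% (0 of 8).

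**Figure D5:**
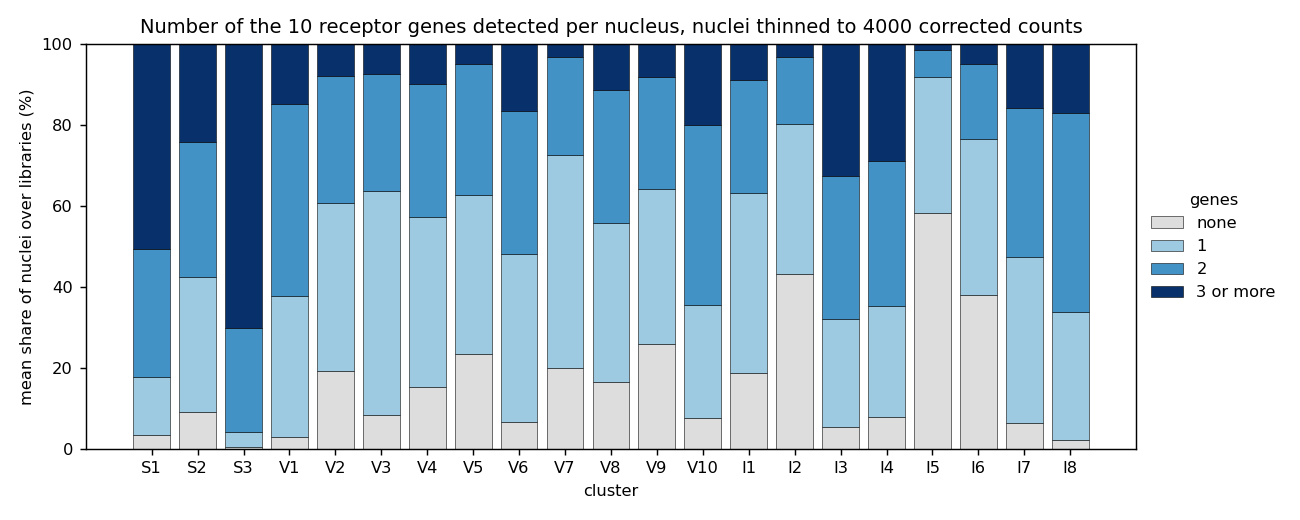
Percent of nuclei (mean over libraries) with none, 1, 2 or at least 3 of the 10 receptors counted after thinning to 4000 counts, as stacked bars for each of the 21 clusters. Gamma MNs (S3) hold at least 3 receptors in 70.3% of nuclei, against 24.2% in alpha MNs (S2), and I5 has the largest share with none.

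The genes through which these receptors act were followed as fixed lists, with the same call rule, under which 11.8% of all genes were called in visceral against skeletal MNs (5.59% higher and 6.22% lower). In visceral against skeletal MNs, of 12 Gq and phospholipase C genes tested 1 was higher and 5 lower, the latter including the calcium-release channels Itpr3 (-3.51) and Itpr2 (-2.23) and the G protein subunit Gna14 (-2.10). Of 10 Gi and Go genes 1 was higher, the regulator Rgs9 (3.32), and 3 lower, among them Rgs6 (-2.17) and Rgs7 (-1.43). Of 12 Gs, adenylyl cyclase and protein kinase A genes 2 were higher, the cyclase Adcy2 (2.00) and the subunit Gnas (1.96), and 3 lower, with the cyclase Adcy8 at -3.01. The ion channels known to be modulated by these receptors had 1 of 17 higher and 6 lower, among them the calcium channel Cacna1d (-1.47) and the leak channel Kcnk9 (-1.44). Receptor partners had 1 of 12 higher, the cannabinoid receptor Cnr1 (1.71), and 1 lower, the RNA-editing enzyme Adarb1 (-1.36). Of 3 serotonin synthesis and breakdown genes tested, Ddc (1.44) and Maoa (1.31) were higher in visceral MNs. Ddc averaged 0.438 CPM in skeletal MNs and 10.4 CPM in visceral MNs. It passed the expression filter only through visceral MNs and interneurons, so that it could be tested only because it was higher there. The median log2 difference was 0.24, 0.28 and 0.21 for the Gi and Go, Gq and Gs lists and -0.25 for the channels, beside 0.04 over all genes.

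In interneurons against skeletal MNs 10.7% of all genes were called, and 7.75% in interneurons against visceral MNs. Against skeletal MNs, the Gq list had 2 higher and 3 lower of 12, with Itpr3 (-3.46) and Itpr2 (-2.16) again low and the kinase Prkcb at 1.93. The Gi and Go list had 2 of 10 higher, Rgs9 (2.33) and Rgs8 (1.68), and the Gs list 1 higher, Gnas (1.94), and 1 lower, Adcy2 (-1.60), of 12. Of 17 channels the inward rectifier subunit Kcnj6 (1.77) was higher, and the leak channels Kcnk3 (-1.42) and Kcnk9 (-1.11) were lower. Of the partners 0 of 12 were called, and of the 3 synthesis and breakdown genes Ddc (1.18) was higher, with the same limit of the filter as above. Interneurons exceeded visceral MNs in 4 of 17 channels, among them Kcnj6 (2.75) and Kcnj3 (1.64), and fell below them in 2. Against visceral MNs, 3 of 10 Gi and Go genes were higher, 2 of 12 Gq genes were higher and 1 lower, and the Gs list had Adcy8 (2.93) higher and Adcy2 (-3.60) lower. Cnr1 (-1.73) and S100a10 (-1.23) were the 2 partners of 12 that were lower, and Maoa (-1.10) the 1 of 3 synthesis and breakdown genes.

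Within skeletal MNs, calls covered 5.23% of all genes in S2 against S1, 5.33% in S3 against S1 and 8.12% in S3 against S2. S3 was below S1 in the Gq genes Gna14 (-3.49) and Itpr1 (-2.23), 2 of 13, and below S2 in the same pair at -3.82 and -3.60. Of 17 channels 1 was higher in S3 than in S1, Kcnj6 (3.24), and 3 were lower, including the calcium channels Cacna1c (-2.63) and Cacna1d (-1.62). Against S2, 2 channels were higher in S3, Kcnj6 (1.96) and Kcnk3 (1.71), and 5 were lower, including Kcnn3 (-1.78). S2 exceeded S1 in Itpr1 (1.37), Itpr3 (1.37), Kcnj6 (1.28) and Kcnn3 (1.09), with 0 calls among 9 Gi and Go genes, 12 Gs genes and 11 partners. Of the Gs list Adcy8 was lower in S3 than in S1 (-1.56) and S2 (-1.44), Rgs9 was the 1 Gi and Go gene lower in S3 than in S2 (-1.0002), and the receptor kinase Grk5 (1.32) was the 1 partner higher in S3 than in S1.

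Some genes followed a receptor's order of clusters. Likeness was Pearson's r of log2(CPM + 5) over the 21 cluster means, a description with no test. For Htr1d the most alike were Rufy4 (0.91), Slc9a2 (0.90) and Clec2l (0.90), and for Htr1f Gm45486 (0.88), Ak7 (0.85) and Eps15l1 (0.84). The values were 0.89 for Tcf20, 0.86 for Lhx5 and 0.85 for Ero1lb with Htr4, and 0.83 for A830019P07Rik, 0.82 for Rassf8 and 0.80 for Gm20708 with Htr7. Htr1b was most like Gm26713 (0.87), Gm47352 (0.87) and Kit (0.85). Htr2c, at 0.74 with Lingo1, 0.73 with Tmeff1 and 0.71 with Grin2b, and Htr2a, at 0.75 with Atp6v1g1, 0.74 with Tiam2 and 0.73 with Masp1, had no equally close match. Between members r was 0.60 for Htr1d with Htr1f, 0.63 for Htr1b with Htr4 and -0.41 for Htr2a with Htr4.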

How the data were processed

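Single-nucleus RNA-seq of GFP+ nuclei sorted from the spinal cord was made in 9 libraries. Per the labels the reads were processed with Cell Ranger 3.1.0 on mm10 and with Seurat. According to the study's methods, a pre-mRNA reference was used, outlier nuclei were removed and counts were corrected with SCTransform. The deposited values are whole-number scores: counts that the authors corrected by that model, not raw counts, so no count model was used. Cluster names and library were taken from the authors' deposited annotation. The annotation of gene positions was GENCODE M21.

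Corrected counts were summed per library and class or cluster (at least 10 nuclei), scaled to CPM and tested as log2(CPM + 5) with limma 3.58.1 with trend (R 4.3.3), over genes reaching 10 CPM in 3 sums or more, with Benjamini-Hochberg adjustment over all genes tested. Class and skeletal fits had a library term, region fits had none and sex fits had a region term. A call was an adjusted p under 0.05, with a log2 difference of at least 1 between classes or skeletal clusters. Scripts were tested on simulated data. Scrublet (scanpy 1.11.5) called 164 doublets (1.02%), which were kept in the main results and left out in an alternative. Floors of 3 counts cover counting error only. Named pathway genes were, by a set rule, up to 3 called genes with the largest difference per list, and the genes most alike in cluster order were the first 3. A result on 1 item is not reported here. The members and lists were chosen with earlier results of these data known.

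Same-numbered libraries come from the same pool of mice. Deviations from the region means correlated within a pool with a median r of 0.67, 0.62 and 0.73 for the skeletal, visceral and interneuron classes (lowest -0.20, -0.13 and -0.18, 9 pairs each), against -0.42, -0.36 and -0.43 between pools. The deviations of a region cancel out over its pools, so positive values within pools force negative ones between pools. The values between pools are therefore no separate evidence. Alternatives were scaling by median of ratios, pseudocounts of 1 and 20, other filters, doublets left out, thinned nuclei and the replicate block. Region and sex fits per class were also run with each library left out. Class, skeletal and within-cluster fits were run with each pool left out.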

Additional observations from a re-analysis of the deposited data

Results flagged for a closer look

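Among 104 sets of libraries tested for a value that stands apart, 4 had one, and chance gives about 1 in 20. Htr1f in I7 was 67.9 CPM in cervical replicate 1 with the next library at 29.7 CPM, and Htr2c in I7 was 2274 CPM in thoracic replicate 1 with the next at 1317 CPM. Htr7 was 39.9 CPM in S3 of thoracic replicate 2, where the next lowest was 57.4 CPM, and 134 CPM in V1 of cervical replicate 1, where the next highest was 109 CPM.

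The difference between lumbar/sacral and rostral libraries was not the same in all classes for 4 receptors. By the interaction term (limma, adjusted over all genes) Htr2c differed by -1.41 between visceral and skeletal MNs and by 1.41 between interneurons and visceral MNs. For Htr4 these values were 1.38 and -1.15. Htr1f (-0.75) and Htr1d (-0.49) differed between interneurons and visceral MNs. Htr1d was in that fit only through skeletal MNs, with at most 4.52 CPM in visceral MNs and 9.72 CPM in interneurons, and was not tested between regions within either class. The visceral class in all these fits held V8, which was almost only lumbar/sacral, and the interactions were not tested without it. With V8 left out, the lumbar/sacral and rostral ranges of visceral Htr1f overlapped.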

How the results depend on the processing

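Over all alternatives, 217 counts of called members stayed within 1.5 times the main value or, where that was 0, stayed at 0, and 21 moved. The counts that stayed at 0 hold no called member and say nothing on the stability of calls. For single members 522 values were kept, 20 lost the call, 3 gained it and 2 changed sign. The 522 hold tests that kept their direction and side of the threshold. They also hold class mean levels, which counted as kept when within 1 SD of the main mean. With at least 10 corrected counts in every sum, which tests fewer members, interneurons against skeletal MNs had 2 calls, interneurons against visceral MNs 0, S2 against S1 1 and lumbar/sacral against rostral visceral MNs 1. A pseudocount of 1 gave 2 calls in interneurons against visceral MNs, as Htr1d then reached 1.73. S2 against S1 had 1 call with a pseudocount of 20 and 1 without both doubted libraries, since Htr2a fell to -0.90 and -0.88, under the fold. At a pseudocount of 20 Htr7 in S3 against S1 was -0.9998, just under it. Visceral lumbar/sacral against rostral had 0 calls without V8, which was added after the data had been seen, as was leaving out both doubted libraries. Leaving out 1 library at a time gave 0 to 2 calls in that comparison. For male against female pools it gave 0 to 2 in skeletal MNs, 0 to 1 in visceral MNs and 0 to 2 in interneurons. These fits were not run with a whole pool left out. Within clusters a whole pool was left out at a time, which gave 0 to 4 calls. The replicate block gave 8 calls within clusters against 5 and changed no other count by more than 1.5 times. Htr1d in S3 against S1 changed sign, to 0.015 without both doubted libraries, and ran from -0.19 to 0.027 with 1 pool left out, and was called in none of these fits. Without pool 2 Htr2c passed the fold in S2 against S1 (-1.03) and in S3 against S2 (1.07). Male against female pools could not be fitted without both doubted libraries. The cause of these changes was not tested. The share of all genes called in the alternative fits is not given here. The counts of calls above are therefore not a result about the members in particular. Depth limits Htr1a, Htr1b, Htr3a and Htr5a, for which differences between clusters of a few CPM were not detectable.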

Other observations

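Of the serotonin receptors not among the 10, Htr2b alone averaged above 4 CPM in a class, and it was singled out after its values were seen, which ranged widely between libraries of each class. In skeletal MNs it was 1.45, 2.38 and 2.86 CPM in the mixed pool (from cervical to lumbar/sacral), 26.3, 20.3 and 26.1 CPM in the male pool and 4.28, 47.0 and 51.8 CPM in the female pool. Visceral MNs had 1.90, 2.07 and 2.58 CPM, 25.3, 16.3 and 19.6 CPM, and 7.49, 36.2 and 49.8 CPM in the same order. The cause was not tested.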
